A study of Homo sapiens with 14 samples.

Results

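The histone demethylases, lysine methyltransferases and deacetylases of Kasumi-1 cells are described here across an RBPMS knockdown and a treatment with RB98#. The members are all genes of the deposited tables named KDM, KMT, HDAC or SETD with a number, without KDM5D, together with EZH1, EZH2, DOT1L, NSD1, NSD2, NSD3, EHMT1 and EHMT2. They numbered 53 of 16405 genes in the knockdown table and 52 of 12325 genes in the RB98# table, where KDM4D was not listed. The rule reads gene names alone.

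Kasumi-1 is a human acute myeloid leukaemia line of myeloblasts from peripheral blood, and all groups share its RUNX1-RUNX1T1 fusion background. RNA-seq libraries were made from cells infected with shRBPMS lentivirus (n = 3) and with shCtrl lentivirus carrying a scrambled shRNA (n = 3). Both were harvested after 48 h of infection and 48 h of puromycin selection. A further 2 libraries came from cells given RB98# and 2 from cells given DMSO. The labels give neither the nature, dose and time of RB98# nor the number of shRNA sequences against RBPMS. They do not say whether replicates were separate cultures, so p-values may measure technical spread only.

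Histone lysine methyltransferases add methyl groups to lysines of the histone tails, and demethylases remove them. Most demethylases hold a JmjC domain that uses iron, oxygen and 2-oxoglutarate, whereas KDM1A and KDM1B use FAD. Deacetylases remove acetyl groups: the class I enzymes are mainly nuclear subunits of corepressor complexes, and the class IIa enzymes shuttle between nucleus and cytoplasm. In leukaemia with RUNX1-RUNX1T1, the fusion protein is known to recruit corepressors that carry class I deacetylases.

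Of the rises with RB98# described here, 9 were in JmjC demethylase genes, and the 250 bases before the RefSeq start of KDM7A, KDM4B and KDM6A are shown, 5′ to 3′ on the gene's strand (RefSeq, GRCh38.p14). KDM7A is read from the minus strand at chr7:140176984-140177233, KDM4B from the plus strand at chr19:4968863-4969112, and KDM6A from the plus strand at chrX:44872938-44873187. Capitals mark matches, on either strand, to ACGTG (core of the hypoxia response element), GGGCGG (GC box) and TGANTCA (AP-1 site). In KDM6A an ACGTG match and the TGANTCA match overlap.
KDM7A: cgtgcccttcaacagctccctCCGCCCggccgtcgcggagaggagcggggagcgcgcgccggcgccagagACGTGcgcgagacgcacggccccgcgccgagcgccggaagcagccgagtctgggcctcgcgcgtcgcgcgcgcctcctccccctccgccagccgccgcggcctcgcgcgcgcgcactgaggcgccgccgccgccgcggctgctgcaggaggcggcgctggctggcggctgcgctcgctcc
KDM4B: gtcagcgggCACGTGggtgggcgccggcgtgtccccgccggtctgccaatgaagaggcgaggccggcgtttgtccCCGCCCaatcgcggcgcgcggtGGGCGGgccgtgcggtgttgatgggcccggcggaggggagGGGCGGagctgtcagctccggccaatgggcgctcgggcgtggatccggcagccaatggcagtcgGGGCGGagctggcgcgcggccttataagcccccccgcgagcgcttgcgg
KDM6A: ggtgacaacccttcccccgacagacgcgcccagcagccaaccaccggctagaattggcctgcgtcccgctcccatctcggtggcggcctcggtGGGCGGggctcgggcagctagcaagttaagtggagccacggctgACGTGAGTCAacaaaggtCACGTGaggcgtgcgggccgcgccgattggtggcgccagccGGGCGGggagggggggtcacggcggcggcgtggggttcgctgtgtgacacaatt

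These 3 genes were picked by no stated rule, and the windows of the other called JmjC genes are not shown. Matches in them therefore give no rate for the genes that rose. All 3 windows held ACGTG and GGGCGG, and KDM6A also held TGANTCA. Of 35116 RefSeq windows of this length, 18.5% held ACGTG, 42.6% held GGGCGG and 6.57% held TGANTCA. The members had 76 windows in that table, from 49 genes. ACGTG stood in 13 of them, GGGCGG in 56 and TGANTCA in 5. The GC content was 81.6% for KDM7A, 75.6% for KDM4B and 69.2% for KDM6A. TGACGTCA (cyclic AMP response element), GTAAACA (FOXO site) and TGTGGT (RUNX site) were searched as well and did not occur in these 3 windows. They stood in 1.65%, 2.98% and 11.0% of all windows. These matches describe letters in a window only.

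Each knockdown library held 24.03 to 34.4 M counts, and each RB98# or DMSO library 13.9 to 15.3 M. The knockdown labels fall into set 1, holding replicate 1 of each group, and set 2, holding replicates 2 and 3, with no word on how the sets differ. Mitochondrial genes took 13.2% (shRBPMS) and 15.2% (shCtrl) of counts in set 1 and 6.20% to 6.95% in set 2. RBPMS had 2.53, 3.34 and 3.08 CPM (counts per 1e6 of a library after TMM scaling) in shRBPMS libraries, against 20.4, 7.24 and 7.39 CPM in shCtrl libraries. All shRBPMS libraries lay below all shCtrl libraries, and the shCtrl library of set 1 stood far above the other two. The log2 change of RBPMS was -1.96 (edgeR, Benjamini-Hochberg adjusted p = 0.0846) without and -1.79 (adjusted p = 0.0106) with a block on the replicate number. With RB98# RBPMS had 6.62 and 8.06 CPM, against 7.17 and 6.40 CPM with DMSO, and the groups overlapped. All 11 myeloblast markers looked for were present in both tables, and none of 5 fibroblast markers was. Also present in the knockdown table were 2 of 7 monocyte, 5 of 7 lymphoid, 1 of 5 erythroid, 2 of 5 megakaryocyte and 1 of 5 epithelial markers. The epithelial one, EPCAM, had 37.2 to 63.6 CPM in shRBPMS and 27.1 to 37.4 CPM in shCtrl libraries. The others summed per list to at most 22.9 CPM in any library of either experiment.

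The members had a higher median CPM than all genes tested. It was 86.9 CPM against 29.3 CPM in the RB98# experiment, and 105.6 CPM against 15.3 CPM in the knockdown. CPM takes no account of transcript length, and no value per kilobase was given for all genes. Whether the members stand higher per transcript was thus not tested. Levels of different genes were set side by side per kilobase of the annotated principal transcript, for 51 members of the RB98# table. The H3K4 demethylase KDM1A (LSD1) led with 97.8 ± 1.78 CPM per kb with RB98# and 99.3 ± 0.881 CPM per kb with DMSO (SD, n = 2 each). EZH2, the catalytic subunit of PRC2, came next with 94.0 ± 5.72 CPM per kb with RB98# and 96.6 ± 1.52 CPM per kb with DMSO. HDAC1, a class I deacetylase, followed with 88.1 ± 2.78 CPM per kb with RB98# and 93.6 ± 1.03 CPM per kb with DMSO.

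These leading genes lay close together and far above the deacetylase HDAC3. HDAC3 had 41.0 ± 2.60 CPM per kb with RB98# and 41.4 ± 0.987 CPM per kb with DMSO. The H3K4 demethylase KDM5B lay beside it, at 40.9 ± 1.57 CPM per kb with RB98# and 37.5 ± 0.509 CPM per kb with DMSO. HDAC3 and KDM5B were closer to each other than their SDs with RB98#. EZH1, the other PRC2 catalytic subunit, was far below EZH2, with 8.90 ± 0.16 CPM per kb with RB98# and 9.45 ± 1.56 CPM per kb with DMSO.

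At the foot of the order, HDAC9 had 0.464 ± 0.265 CPM per kb with RB98# and 0.282 ± 0.0984 CPM per kb with DMSO. HDAC11 had 0.509 ± 0.100 CPM per kb with RB98# and 0.401 ± 0.118 CPM per kb with DMSO. The SDs of these 2 genes overlapped, so their order is not resolved. In the knockdown table the same leaders stood on top, and HDAC9 did not pass the filter on low counts. HDAC9 had 37, 3 and 7 counts in shRBPMS libraries and 24, 6 and 8 counts in shCtrl libraries, with the high counts in set 1.

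**Figure D1:**
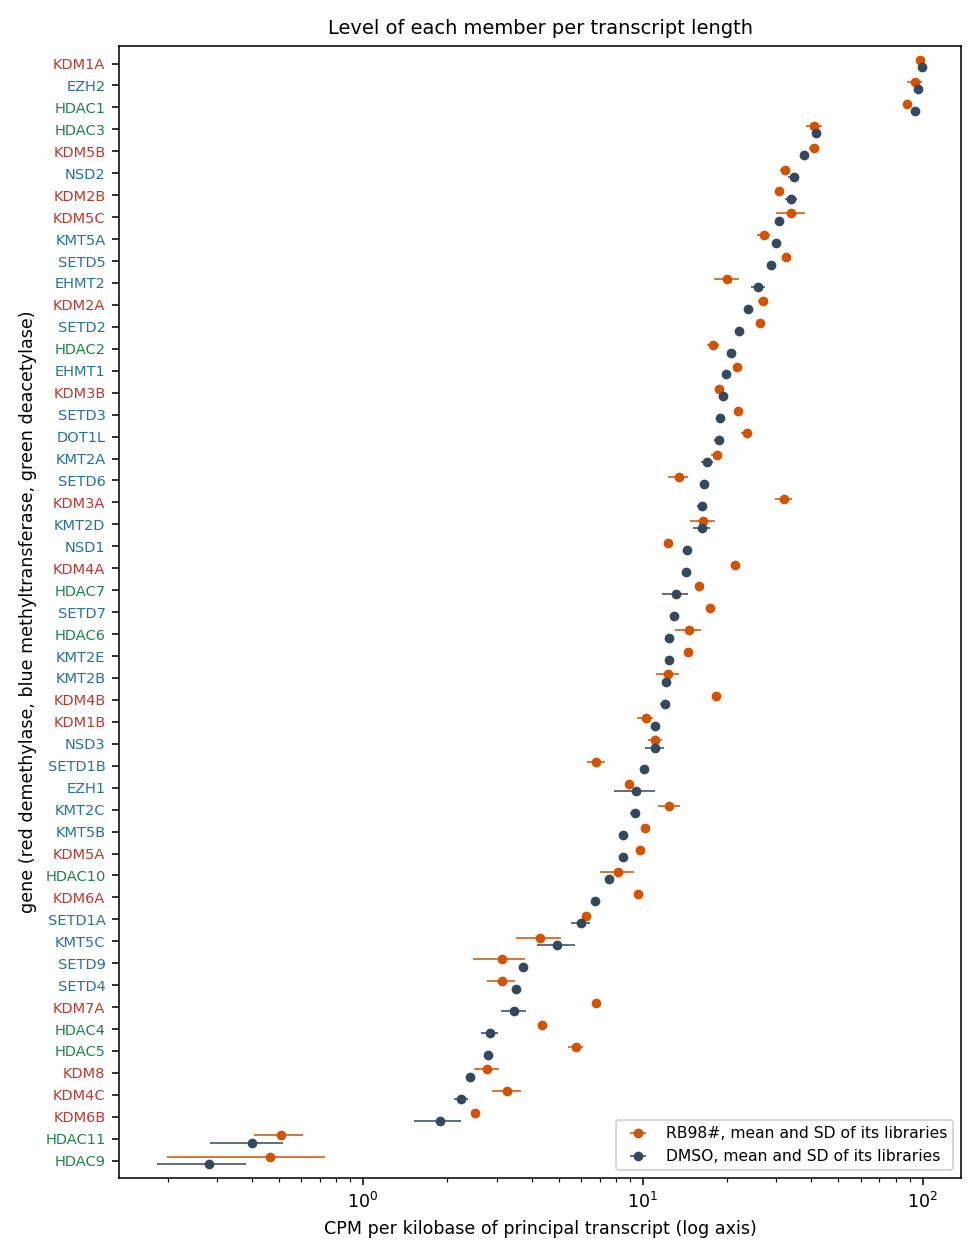
Level of 51 members in CPM per kilobase of principal transcript on a log axis, as mean and SD of the RB98# libraries (orange) and the DMSO libraries (dark blue). KDM1A, EZH2 and HDAC1 stand above all others in both groups, and KDM3A, KDM4A, KDM4B, KDM7A and HDAC5 lie visibly to the right of their DMSO points with RB98#.

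The plot of levels per kilobase shows that the largest responses to RB98# came from genes of low and middle level. KDM3A moved to place 9 with RB98#, against place 21 with DMSO, whereas KDM1A, EZH2, HDAC1, HDAC3 and KDM5B kept places 1 to 5 in both groups.

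The comparison of RB98# with DMSO asks how these enzymes' transcripts respond to the agent. With RB98# 21 of 52 members were higher and 5 were lower (edgeR quasi-likelihood test, Benjamini-Hochberg adjusted p under 0.05). Of all 12324 genes tested 37.8% were called, 20.5% higher and 17.3% lower. The median log2 change was 0.13 over the members and 0.00 over all genes. Groups did not overlap in CPM for 39 members, 26 of them higher and 13 lower with RB98#, beside 68.3% of all genes (34.3% higher and 34% lower). Scaled by library totals alone, the median log2 change was 0.03 over the members and -0.10 over all genes. There 11 members were called higher and 9 lower, given here without the share of all genes. The balance of member calls thus depends on the scaling, which moved the median of all genes as well.

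Of 14 JmjC demethylases with KDM names that were tested, 9 were called higher and none lower, beside 20.5% and 17.3% of all genes. Their median log2 change was 0.31. Demethylases under other names, of which RIOX1 and RIOX2 were called lower, are counted apart below. With library totals alone 6 of the 14 were called higher and KDM2B was called lower, given without the share of all genes. KDM2A, KDM5A and KDM6B lost their calls there and with DESeq2. KDM3A, which removes H3K9 mono- and dimethylation, had 166 and 150.0 CPM with RB98#, against 78.1 and 82.9 CPM with DMSO. The groups lay far apart beside the distance within each. Its log2 change was 0.97 ± 0.07 (SE; edgeR, Benjamini-Hochberg adjusted p = 7.74e-11), a fold of 1.96.

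KDM7A, a demethylase of H3K9 and H3K27, had 64.7 and 61.6 CPM with RB98#, against 29.7 and 34.4 CPM with DMSO. Both RB98# libraries were well above both DMSO libraries. Its log2 change was 0.98 ± 0.09 (edgeR, adjusted p = 9.68e-09), a fold of 1.97.

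The KDM4 genes encode demethylases of H3K9 and H3K36 trimethylation, and the 3 members in this table rose by 0.55 to 0.61 on the log2 scale. KDM4B had 103 and 102 CPM with RB98#, against 69.0 and 65.2 CPM with DMSO (log2 change 0.61 ± 0.07, edgeR, adjusted p = 4.47e-07). KDM4A had 93.7 and 97.1 CPM with RB98#, against 64.5 and 63.1 CPM with DMSO (0.58 ± 0.07, edgeR, adjusted p = 1.16e-06). KDM4C, far lower in level, had 16.5 and 14.0 CPM with RB98#, against 10.9 and 10.0 CPM with DMSO (0.55 ± 0.15, edgeR, adjusted p = 0.00434). No RB98# library of these genes reached down to a DMSO library. The call of KDM4C was lost without RB98# replicate 1 (adjusted p = 0.0559) and without DMSO replicate 2 (adjusted p = 0.0641). Other annotated genes overlap 48.5% of the exon bases of KDM4A, 8.97% on the opposite strand, and the strand setting of the counting is not stated.

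The KDM6 genes, which encode H3K27 demethylases, were also higher. KDM6A (UTX), on chromosome X, had 53.0 and 51.6 CPM with RB98#, against 37.7 and 35.8 CPM with DMSO. The libraries of each group lay close together and the groups apart, with a log2 change of 0.51 ± 0.09 (edgeR, adjusted p = 7.13e-05). KDM6B (JMJD3) had 17.2 and 16.7 CPM with RB98#, against 10.9 and 14.3 CPM with DMSO. Its DMSO libraries stood further apart than those of KDM6A, and its log2 change of 0.42 ± 0.14 (edgeR, adjusted p = 0.0229) was not called without DMSO replicate 1 (0.24, adjusted p = 0.378) or without RB98# replicate 1 (adjusted p = 0.066).

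The other 2 JmjC calls were small: KDM5A (0.20, adjusted p = 0.0228) and KDM2A (0.18, adjusted p = 0.0278). Not called were KDM2B, KDM3B, KDM5B, KDM5C and KDM8, with log2 changes of -0.14 to 0.20 (edgeR). The FAD-dependent KDM1A had 300.4 and 293 CPM with RB98#, against 303 and 299 CPM with DMSO. These groups overlapped (log2 change -0.02 ± 0.06, edgeR, adjusted p = 0.802). KDM1B was not called either (-0.11 ± 0.10, edgeR, adjusted p = 0.391).

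**Figure D2:**
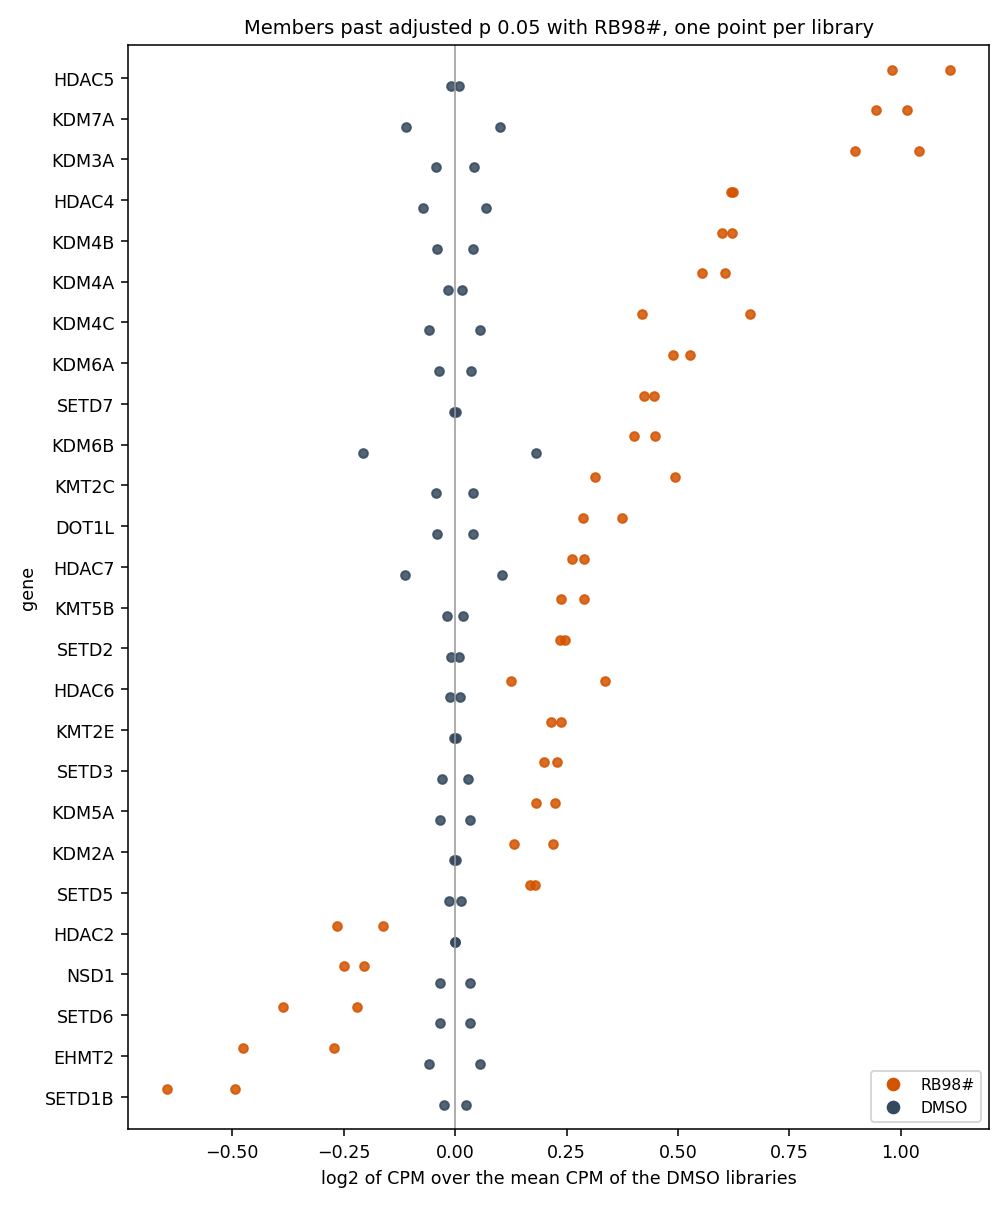
The 26 members past an adjusted p of 0.05 with RB98#, each library shown as the log2 of its CPM over the mean CPM of the DMSO libraries (orange RB98#, dark blue DMSO). HDAC5, KDM7A and KDM3A lie about 1 log2 unit to the right in both RB98# libraries, and SETD1B and EHMT2 lie furthest to the left.

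The plot of the called members by library shows that in each of the 26 genes the RB98# points lie on a single side of the DMSO points. The genes were picked on these same libraries, and 68.3% of all genes separated in this way, so this adds no support. In KDM6B and HDAC7 the DMSO points are spread most, and in HDAC6 and KDM4C the RB98# points are.

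Among the deacetylases the rises lay mostly in class IIa. The class IIa enzymes are known to bind MEF2 factors and to shuttle under control of phosphorylation. Of 4 tested 3 were called higher and none lower, beside 20.5% and 17.3% of all genes. HDAC5 had 29.3 and 32.0 CPM with RB98#, against 14.7 and 14.9 CPM with DMSO. Both RB98# libraries stood far above both DMSO libraries, and the log2 change of 1.05 ± 0.11 (edgeR, adjusted p = 1.09e-07) was the largest among the members called. HDAC4 had 39.2 and 39.1 CPM with RB98#, against 24.2 and 26.7 CPM with DMSO (0.62 ± 0.10, edgeR, adjusted p = 2.3e-05). HDAC7 was higher by a smaller step (0.27 ± 0.09, edgeR, adjusted p = 0.0139), but was not called without DMSO replicate 1, with DESeq2 or with library totals alone. HDAC9, at 0.887 and 2.09 CPM with RB98# and 0.683 and 1.13 CPM with DMSO, was too low to tell the groups apart (0.68 ± 0.48, edgeR, adjusted p = 0.273).

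Of the class I genes HDAC2 was called lower. HDAC1, HDAC2 and HDAC3 encode the catalytic subunits of SIN3, NuRD, CoREST and NCoR complexes. HDAC2 had 182 and 169.6 CPM with RB98#, against 204 and 204 CPM with DMSO (log2 change -0.21 ± 0.06, edgeR, adjusted p = 0.0089). The call was lost without either DMSO replicate (adjusted p = 0.15 and 0.148). HDAC1 had 183 and 191 CPM with RB98#, against 197 and 200.4 CPM with DMSO, and HDAC3 had 76.8 and 84.0 CPM with RB98#, against 82.5 and 79.8 CPM with DMSO. The groups overlapped for HDAC3; for HDAC1 they lay apart by less than its test could call (-0.09 ± 0.06, edgeR, adjusted p = 0.271). With library totals alone HDAC1 was called lower too. HDAC8 was not called (0.17 ± 0.10, edgeR, adjusted p = 0.197). Among the class IIb and IV genes HDAC6, the tubulin deacetylase, was called (0.23 ± 0.09, edgeR, adjusted p = 0.0371), and HDAC10 and HDAC11 were not.

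The methyltransferases moved in both directions, with 8 of 25 called higher and 4 lower, beside 20.5% and 17.3% of all genes. Their median log2 change was 0.02. With library totals alone the split was 3 higher and 6 lower, given without the share of all genes. Among the H3K4 enzymes, SETD7 had 127 and 129 CPM with RB98#, against 95.0 and 94.7 CPM with DMSO (0.43 ± 0.07, edgeR, adjusted p = 1.36e-05). KMT2C (MLL3), an enhancer H3K4 methyltransferase, had 197 and 223 CPM with RB98#, against 163 and 154 CPM with DMSO (0.41 ± 0.07, edgeR, adjusted p = 3.69e-05). SETD1B, a catalytic subunit of a SET1 complex, went the other way, at 38.4 and 42.7 CPM with RB98#, against 61.1 and 59.1 CPM with DMSO (-0.57 ± 0.09, edgeR, adjusted p = 1.63e-05). Within the H3K4 group the libraries of both treatments were thus separated upward for SETD7 and KMT2C and downward for SETD1B.

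KMT2A (MLL1) had 243 and 259.7 CPM with RB98#, against 241 and 224 CPM with DMSO, and was not called (0.11 ± 0.06, edgeR, adjusted p = 0.163). KMT2E was higher by 0.23 (adjusted p = 0.0126), and KMT2B, KMT2D and SETD1A were not called (0.02 to 0.06). The paralogue pair SETD1A and SETD1B, which encode alternative catalytic subunits of the same kind of complex, had log2 changes of 0.06 ± 0.09 and -0.57 ± 0.09.

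DOT1L, the H3K79 methyltransferase, had 169 and 180.1 CPM with RB98#, against 143 and 135 CPM with DMSO. The groups did not overlap, and the log2 change was 0.33 ± 0.06 (edgeR, adjusted p = 0.000235). EHMT2 (G9a), which methylates H3K9, had 73.7 and 84.9 CPM with RB98#, against 107 and 98.4 CPM with DMSO (-0.37 ± 0.08, edgeR, adjusted p = 0.000534). Its partner EHMT1 was not called (0.12 ± 0.07, edgeR, adjusted p = 0.153).

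The H3K27 methyltransferases were not called. EZH2 had 259 and 237 CPM with RB98#, against 252 and 258 CPM with DMSO, and EZH1 had 40.6 and 41.7 CPM with RB98#, against 48.8 and 38.6 CPM with DMSO. In both genes the groups overlapped, with log2 changes of -0.04 ± 0.06 (EZH2, edgeR, adjusted p = 0.645) and -0.09 ± 0.10 (EZH1, edgeR, adjusted p = 0.547).

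Of the H3K36 enzymes SETD2 was called higher (0.24 ± 0.06, edgeR, adjusted p = 0.00246) and NSD1 lower. NSD1 had 156 and 161 CPM with RB98#, against 181 and 190.0 CPM with DMSO (-0.23 ± 0.06, edgeR, adjusted p = 0.00542), and lost the call without DMSO replicate 1 (adjusted p = 0.0653) or DMSO replicate 2 (adjusted p = 0.202). NSD2 and NSD3 were not called (-0.10 and 0.01). KMT5B, an H4K20 methyltransferase, was higher (0.26 ± 0.08, edgeR, adjusted p = 0.0145), and KMT5A and KMT5C were not called. SETD3, which methylates actin, and SETD5 were higher by 0.21 and 0.17. SETD6 had 25.9 and 29.04 CPM with RB98#, against 34.6 and 33.0 CPM with DMSO (-0.30 ± 0.10, edgeR, adjusted p = 0.0211); it lost the call without any of RB98# replicate 1, DMSO replicate 1 or DMSO replicate 2 (adjusted p = 0.104, 0.206 and 0.0942). CNOT1 on the opposite strand overlaps 21.4% of the exon bases of SETD6.

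The 26 members not called had log2 changes of -0.26 (SETD9) to 0.68 (HDAC9). Of the 26 calls 12 held under each of the 9 alternatives run: HDAC4, HDAC5, KDM3A, KDM4A, KDM4B, KDM6A, KDM7A, KMT2C, SETD7 and DOT1L higher, and SETD1B and EHMT2 lower. HDAC6, KDM2A, KDM5A, KMT2E, KMT5B, SETD2, SETD3 and SETD5 each lost their call without DMSO replicate 1 and without DMSO replicate 2, HDAC6 also without RB98# replicate 2 and SETD3 without RB98# replicate 1. All of these were also lost with library totals alone, all but KMT2E and SETD2 with DESeq2, and KDM2A, SETD3 and SETD5 under a replicate block. SETD6 was lost with DESeq2 too. Without DMSO replicate 1 or DMSO replicate 2 fewer members were called, given here without the share of all genes. The authors' deposited table called 11 members higher and 4 lower at an adjusted p of 0.05, and its share over all genes was not counted.

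The comparison of shRBPMS with shCtrl asks which of these transcripts move when RBPMS, an RNA-binding protein, is depleted. Without a block none of 52 members was called by edgeR (1.97% of 16215 genes were, 0.629% higher and 1.34% lower), while 6 had an unadjusted p under 0.05 (16.9% of all genes). DESeq2 called 4 members among 1338 genes called, DOT1L and KDM6B higher and HDAC5 and NSD2 lower, and limma-voom called no member. The groups did not overlap for 13 members, 4 higher and 9 lower with shRBPMS, beside 25.9% of all genes (12.3% higher and 13.6% lower). Same-numbered libraries deviated together, with correlations of 0.853, 0.776 and 0.803 over genes. Crossing replicates 2 and 3 gave 0.772 and 0.778, so these correlations follow the set and do not show pairing by replicate number. A fit blocked on the replicate number, which also takes up the sets, is given beside the first. The blocked fit called 17 of 52 members, 7 higher and 10 lower, beside 28.1% of all genes (13.3% higher and 14.8% lower).

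The share of members called was thus near that of all genes in the blocked fit. The median log2 change of the members in that fit was -0.02, and that of all genes was 0.02. All 17 called members changed in the same direction in set 1 and in set 2, and over all 52 tested 41 did. The 17 were picked by a fit of these same ratios, so their shared direction is no separate support. No share over all genes was taken beside the 41. Calls named below as higher or lower are those of the blocked fit. With replicates 2 and 3 summed to 1 library DOT1L, KDM6B, HDAC5, SETD5, EHMT2 and KDM6A kept theirs, and the others did not.

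DOT1L was the member with the largest rise. It had 239, 287 and 311 CPM in shRBPMS libraries, against 137, 186 and 176 CPM in shCtrl libraries. The lowest shRBPMS library lay above the highest shCtrl library, and within each group the library of set 1 was the lowest. The log2 change was 0.75 ± 0.07 with the block (edgeR, Benjamini-Hochberg adjusted p = 0.000694) and 0.75 ± 0.17 without it (adjusted p = 0.0828). Other genes on the opposite strand overlap 11.5% of its exon bases.

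KDM6B had 36.2, 30.6 and 31.3 CPM in shRBPMS libraries, against 23.8, 20.04 and 20.5 CPM in shCtrl libraries. Its groups did not overlap, with a log2 change of 0.61 ± 0.07 with the block (edgeR, adjusted p = 0.00185) and 0.61 ± 0.14 without it (adjusted p = 0.0879). The log2 ratio stood at 0.60 in set 1 and at 0.61 in set 2. KDM6A, its paralogue, was lower, at 41.7, 37.6 and 41.4 CPM in shRBPMS libraries, against 66.4, 46.7 and 49.2 CPM in shCtrl libraries. Its groups did not overlap either (-0.41 ± 0.10 with the block, edgeR, adjusted p = 0.0197; -0.43 without, adjusted p = 0.269).

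HDAC5 fell the most. It had 7.58, 12.9 and 12.9 CPM in shRBPMS libraries, against 19.6, 23.5 and 23.0 CPM in shCtrl libraries. All shRBPMS libraries were below all shCtrl libraries, and in both groups the set 1 library was the lowest. The log2 change was -1.004 ± 0.126 with the block (edgeR, adjusted p = 0.00213) and -0.98 ± 0.24 without it (adjusted p = 0.0924), with -1.37 in set 1 and -0.85 in set 2. The authors' deposited table gave DOT1L 0.74, KDM6B 0.61 and HDAC5 -0.96, and called no other member.

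**Figure D3:**
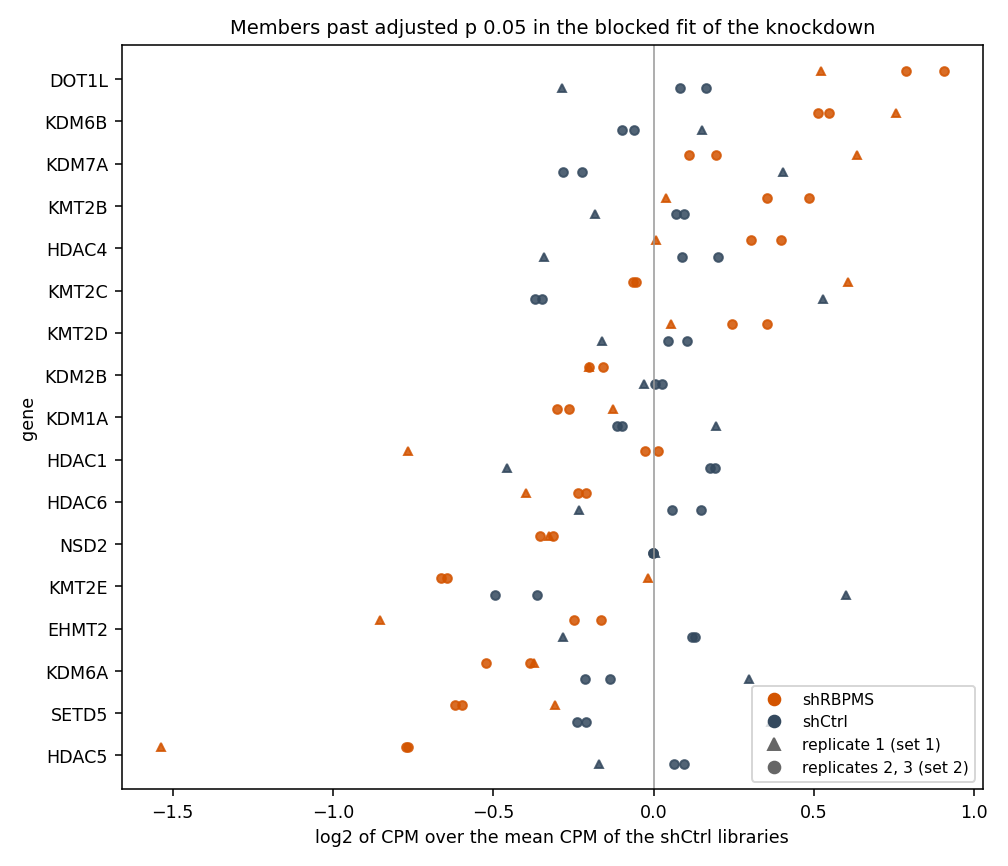
The 17 members past an adjusted p of 0.05 in the blocked fit of the knockdown, each library shown as the log2 of its CPM over the mean CPM of the shCtrl libraries (orange shRBPMS, dark blue shCtrl; triangles set 1, circles set 2). DOT1L, KDM6B and HDAC5 separate the groups across sets, whereas for KMT2C, KMT2E and HDAC1 the sets lie further apart than the groups.

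The plot of the knockdown by library shows why both fits are given: for several genes the triangles stand off from the circles of the same group by more than shRBPMS stands off from shCtrl. KMT2C had 308, 195 and 194 CPM in shRBPMS libraries and 292, 157 and 159 CPM in shCtrl libraries. In KMT2E the values were 125, 81.0 and 79.8 CPM in shRBPMS libraries and 191, 89.7 and 98.2 CPM in shCtrl libraries. Both genes were high in set 1 in both groups.

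Of the KMT2 genes, KMT2B (0.30 ± 0.06), KMT2C (0.22 ± 0.07) and KMT2D (0.22 ± 0.06) were higher and KMT2E (-0.36 ± 0.09) lower in the blocked fit (edgeR, adjusted p = 0.0148, 0.047, 0.0359 and 0.0291). KMT2B had 157, 196 and 215 CPM in shRBPMS libraries, against 135, 164 and 161 CPM in shCtrl libraries. KMT2D, the other enhancer H3K4 methyltransferase, had 478, 545 and 587 CPM in shRBPMS libraries, against 411, 494 and 475 CPM in shCtrl libraries. Within each set shRBPMS was above shCtrl for both, although the groups overlapped across sets. KMT2A, at 315, 219 and 229 CPM in shRBPMS libraries and 465, 239.8 and 245 CPM in shCtrl libraries, was not called (-0.27 ± 0.10, adjusted p = 0.0832). Without shRBPMS replicate 1 the unblocked change of KMT2C turned to -0.06, and without shCtrl replicate 1 that of KMT2E turned to 0.0046.

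SETD5 was lower, at 205, 165 and 167 CPM in shRBPMS libraries, against 327, 215 and 219 CPM in shCtrl libraries (-0.48 ± 0.08 with the block, edgeR, adjusted p = 0.00494; -0.50 without, adjusted p = 0.273). NSD2, an H3K36 dimethyltransferase, had 265, 259 and 267 CPM in shRBPMS libraries, against 333, 332 and 331 CPM in shCtrl libraries (-0.33 ± 0.06 with the block, edgeR, adjusted p = 0.00618). Its libraries within a group lay close together, across sets too. EHMT2 had 80.8, 123 and 130.2 CPM in shRBPMS libraries, against 119.9, 159.5 and 159 CPM in shCtrl libraries (-0.41 ± 0.07 with the block, edgeR, adjusted p = 0.00745). EHMT2 was lower in each set, with overlap across sets.

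Among the class I deacetylases HDAC1 was lower in the blocked fit, at 140.3, 234 and 241 CPM in shRBPMS libraries and 174, 269.9 and 272 CPM in shCtrl libraries (-0.23 ± 0.06, edgeR, adjusted p = 0.028). HDAC2 had 193, 196 and 185 CPM in shRBPMS libraries, against 229, 210.5 and 205 CPM in shCtrl libraries, and HDAC3 had 50.8, 87.8 and 88.0 CPM in shRBPMS libraries, against 52.7, 89.8 and 93.1 CPM in shCtrl libraries. Neither was called (-0.16 ± 0.06, adjusted p = 0.0811, and -0.06 ± 0.06, adjusted p = 0.529), although all shRBPMS libraries of HDAC2 lay below all shCtrl libraries. HDAC6 was lower, at 44.4, 50.5 and 49.6 CPM in shRBPMS libraries and 49.8, 60.8 and 64.8 CPM in shCtrl libraries (-0.27 ± 0.07, edgeR, adjusted p = 0.0294). HDAC4 was higher, at 37.6, 49.3 and 46.1 CPM in shRBPMS libraries and 29.5, 42.9 and 39.7 CPM in shCtrl libraries (0.25 ± 0.07, edgeR, adjusted p = 0.0372).

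Further demethylases were called too. KDM7A had 62.0, 45.7 and 43.2 CPM in shRBPMS libraries and 52.9, 32.8 and 34.2 CPM in shCtrl libraries, and was higher (0.35 ± 0.08, edgeR, adjusted p = 0.0157). KDM1A was lower, at 339, 299.9 and 308 CPM in shRBPMS libraries and 422, 341 and 345 CPM in shCtrl libraries (-0.22 ± 0.06, edgeR, adjusted p = 0.0336). KDM2B was lower, at 150.4, 150.5 and 155 CPM in shRBPMS libraries and 169.7, 176 and 173 CPM in shCtrl libraries (-0.19 ± 0.06, edgeR, adjusted p = 0.0466). The groups of KDM1A and KDM2B did not overlap, and those of KDM7A did across sets.

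The other JmjC demethylases were not called, and the family of 15 had 2 genes higher and 2 lower with a median of 0.04. KDM4C, whose groups did not overlap, just missed (0.33 ± 0.10, edgeR, adjusted p = 0.0518). EZH2 had 239, 234 and 233 CPM in shRBPMS libraries, against 274, 256 and 266 CPM in shCtrl libraries, all lower but not called (-0.17 ± 0.06, edgeR, adjusted p = 0.0583). EZH1, at 53.2, 49.8 and 56.0 CPM in shRBPMS libraries and 53.1, 44.6 and 49.7 CPM in shCtrl libraries, overlapped (0.11 ± 0.07, edgeR, adjusted p = 0.276). KDM4D, close to the limit of detection, had 0.693, 0.632 and 0.322 CPM in shRBPMS libraries and 0.267, 0.287 and 0.599 CPM in shCtrl libraries. The 35 members not called had log2 changes of -0.27 (KMT2A) to 0.45 (KDM4D).

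**Figure D4:**
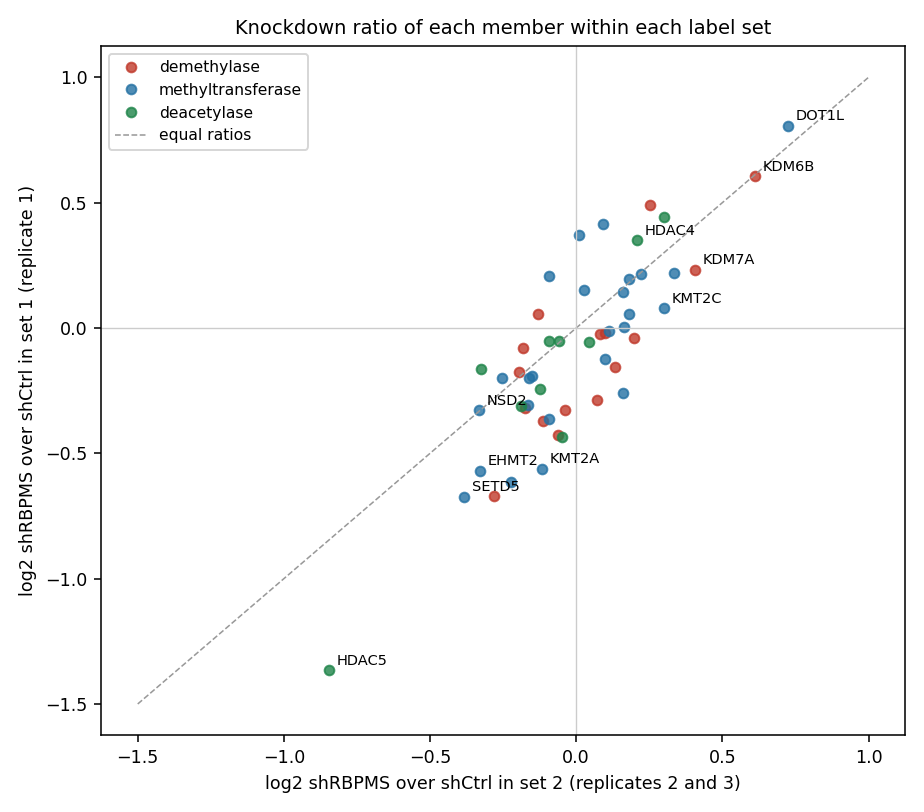
Log2 ratio of shRBPMS over shCtrl within set 1 (replicate 1, vertical) against that within set 2 (replicates 2 and 3, horizontal) for each member with a mean above 1 CPM in shCtrl libraries, coloured by enzyme class, with the line of equal ratios dashed. DOT1L and KDM6B lie at the upper right and HDAC5 at the lower left in both sets.

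The plot of ratios within the sets places most members near the line, with HDAC5, SETD5 and KMT2A further below 0 in set 1 than in set 2. Levels differed between sets by transcript length: across 50 members the log2 ratio of set 1 over set 2 had a Pearson r with log2 length of 0.465 in shRBPMS cells and 0.593 in shCtrl cells (Spearman 0.452 and 0.587). These points share libraries, and their part in the knockdown results was not tested.

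The calls of the knockdown depended on how the sets were treated. With the label set as covariate 9 members were called higher and 17 lower (35.8% of all genes, 17.5% higher and 18.4% lower). With replicates 2 and 3 summed to 1 library, 2 were higher and 4 lower (16.4% of all genes, 7.73% higher and 8.62% lower). In the authors' adjusted values 3 were called, given here without the share of all genes. The calls of DOT1L, KDM6B and HDAC5 held in each of these 3 settings. On the sums SETD5, EHMT2 and KDM6A were called as well. The other 11 calls of the blocked fit were lost there, with adjusted p of 0.0583 for KMT2E, 0.0876 for NSD2, 0.123 for KDM7A, 0.146 for KMT2B, 0.159 for HDAC4, 0.198 for HDAC1, 0.21 for HDAC6, 0.212 for KDM1A, 0.251 for KMT2D, 0.335 for KDM2B and 0.35 for KMT2C (edgeR, Benjamini-Hochberg). Leaving pair 2 or pair 3 out of the blocked fit left 6 members called, and leaving out pair 1 gave 33. These counts too stand without the share of all genes.

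Both experiments were set side by side for the 51 members tested in each, with separate control libraries. Called higher in both were DOT1L, HDAC4, KDM6B, KDM7A and KMT2C (5 of 51, beside 3.3% of all genes tested in both), and called lower in both was EHMT2 (2.67% of all genes). Higher with RB98# and lower in the blocked fit of the knockdown were HDAC5, HDAC6, KDM6A, KMT2E and SETD5 (5 of 51, beside 4.63% of all genes). No member was lower with RB98# and higher in the knockdown, beside 3.38% of all genes. With replicates 2 and 3 summed the knockdown calls of HDAC4, KDM7A, KMT2C, HDAC6 and KMT2E were lost, so that DOT1L and KDM6B were higher in both, EHMT2 was lower in both, and HDAC5, KDM6A and SETD5 had opposite calls. Across the 51 members the changes had a Pearson r of 0.05 and a Spearman rho of 0.20, as a description.

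**Figure D5:**
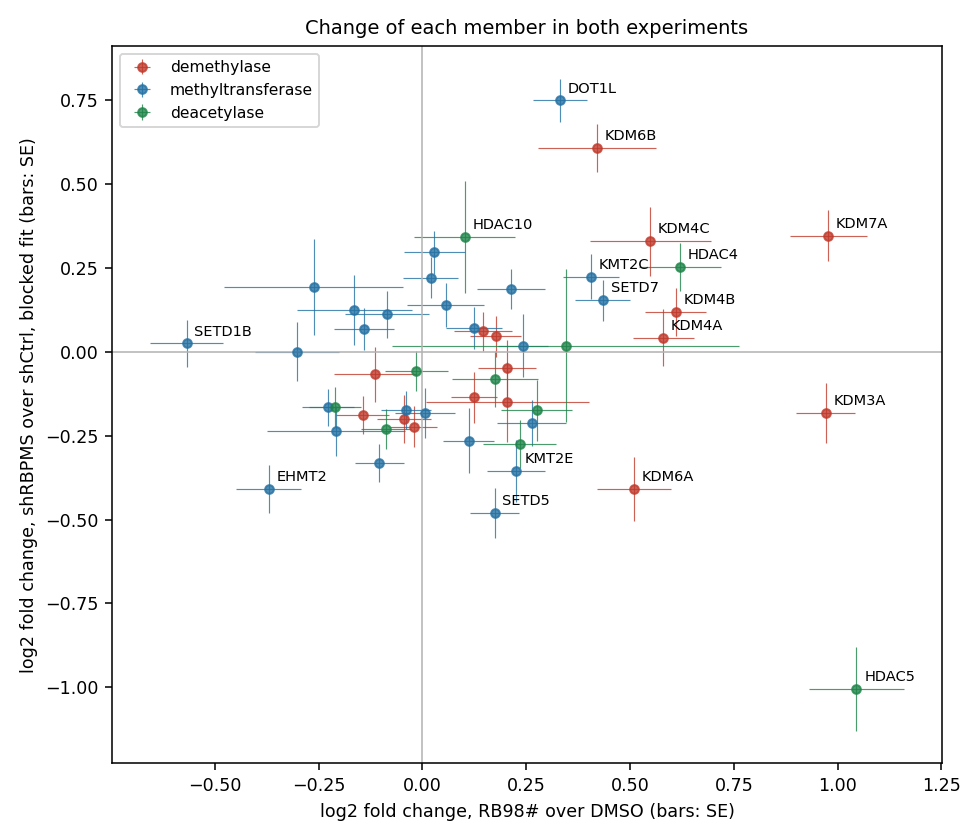
Log2 fold change of RB98# over DMSO (horizontal) and of shRBPMS over shCtrl in the blocked fit (vertical) for 51 members, with SE bars and colours by enzyme class. HDAC5 lies furthest to the lower right, where KDM6A, SETD5, KMT2E and HDAC6 also lie, nearer the centre. DOT1L, KDM6B and KDM7A lie at the upper right.

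The test of the difference, the RB98# effect minus the knockdown effect over all 10 libraries, called 4 of 51 members, 3 with the higher effect for RB98# and 1 with the lower (8.15% of 12126 genes, 4.79% and 3.36%). The difference was 2.01 ± 0.33 for HDAC5 (edgeR, Benjamini-Hochberg adjusted p = 0.011), 1.15 ± 0.18 for KDM3A (adjusted p = 0.0104), 0.92 ± 0.23 for KDM6A (adjusted p = 0.0426) and -0.61 ± 0.15 for SETD1B (adjusted p = 0.0476). HDAC5 and KDM6A had changes of opposite sign in the plot of both effects, while KDM3A (-0.18 ± 0.09, adjusted p = 0.173) and SETD1B (0.03 ± 0.07, adjusted p = 0.819) were not called in the knockdown. Blocked on the replicate number, 14 members differed (37.1% of all genes, 18.9% higher and 18.2% lower): DOT1L and SETD1B had the lower effect with RB98#, and 12 had the higher one. The block added HDAC4, HDAC6, HDAC7, KDM4A, KDM4B, KDM7A, KMT2E, KMT5B, SETD5 and DOT1L. Unblocked, KDM6A and SETD1B lost their calls without shRBPMS replicate 2, shRBPMS replicate 3 or shCtrl replicate 3. The unblocked test called none of the members without RB98# replicate 1, DMSO replicate 1 or DMSO replicate 2, and KDM3A alone without RB98# replicate 2.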

How the data were processed

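RNA was measured by RNA-seq in Kasumi-1 cells, in 10 of the 14 samples of the series; the other 4 samples, of RIP-seq and m6A-seq, are left aside. Per the submitters' processing notes, tools were HISAT2 2.2.1, fastp 0.22.0, DESeq2 1.32.0, featureCounts 2.0.1 and StringTie on GRCh38, without a role for each. Per the file headers, the authors deposited raw counts per gene and library. They also deposited a signal column for each knockdown library, adjusted by steps not given in the labels, used as an alternative only with a pseudocount of 1. The log2 fold changes and p-values of the authors' deposited tables are quoted where named. A total of 112 repeated lines was dropped from the RB98# table, and 4 per-library columns were not used.

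Counts were tested with the quasi-likelihood F test of edgeR 4.0.16 (R 4.3.3), two-sided, with TMM factors, filterByExpr (count of 10, total of 15), group alone as design, and Benjamini-Hochberg adjustment over all genes tested (16215 in the knockdown, 12324 with RB98#). Each experiment was fitted alone, with its own table and controls. The difference of effects came from 1 fit of 10 libraries on 12126 genes. The tests were checked on simulated counts. Alternatives were a replicate block, the label set as covariate, summed replicates, DESeq2 1.42.0, voom of limma 3.58.1, library totals alone, no filter, and each library left out.

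Replicate numbers were taken to pair the knockdown libraries because each same-numbered pair deviated together over 10698 genes, but crossing replicates 2 and 3 gave 0.772 and 0.778, so the shared part follows the set. Replicates 2 and 3 of a group differed by a chi-square of 3.01 to 3.03 per degree of freedom, above sampling noise, and were counted apart. Replicate 1 differed from them by 133 and 137 in shRBPMS libraries and by 194 and 215 in shCtrl libraries. Replicates 2 and 3 were thus far closer to each other, and the 3 pairs of the blocked fit may not be 3 separate replicates. The fit on their sums is given for this reason. The RB98# pairs had -0.07.

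CPM per kb used the principal transcript of the GENCODE annotation. Described with values in every library are up to 12 members called per direction and comparison, by size of change, and a fixed set of KDM1A, KMT2A, DOT1L, EZH1, EZH2, EHMT2, HDAC1, HDAC2 and HDAC3. Members and lists were chosen with earlier results of these data known. The number of counts limits precision, most for HDAC9, HDAC11 and KDM4D.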

Additional observations from a re-analysis of the deposited data

Results flagged for a closer look

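The effect of RB98# and that of the knockdown differed in the test of the difference for 4 of 51 members, beside 8.15% of all genes. HDAC5 had a difference of 2.01 on the log2 scale, KDM3A of 1.15, KDM6A of 0.92 and SETD1B of -0.61. All 4 kept their sign and were also called under a replicate block and with library totals only. With limma-voom HDAC5 and KDM3A alone were called. KDM6A and SETD1B also lost their calls without shRBPMS replicate 2, shRBPMS replicate 3 or shCtrl replicate 3. SETD1B lost its call without shCtrl replicate 2 too. HDAC5 and KDM3A kept theirs without any 1 knockdown library. Both experiments used separate libraries and tables, and which property of the agent, the shRNA or the libraries moves with these differences was not tested.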

How the results depend on the processing

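With a replicate block, the knockdown called 17 members against 0 without it, beside 28.1% and 1.97% of all genes. The difference of effects called 14 against 4, beside 37.1% and 8.15%. With RB98# the block gave 23 against 26, the latter beside 37.8%. The knockdown count was 4 with DESeq2 and, without a share of all genes, 3 with the authors' adjusted values. It was 26 with the label set as covariate and 6 with replicates 2 and 3 summed, beside 35.8% and 16.4% of all genes. The counts that follow stand without a share of all genes. Settings added after the data were seen gave 33 in label set 2 alone, 18 in the block with library totals only, and 6 to 33 in the block with 1 pair left out. Leaving out 1 knockdown library without a block gave 0 each time. RB98# counts were 17 with DESeq2, 20 with library totals only, and 13 to 28 with 1 library left out. The difference of effects gave 2 with limma-voom and 0 to 5 with 1 library left out. The sign turned for KMT2C (-0.0596 without shRBPMS replicate 1, highest 0.541 without shCtrl replicate 1) and KMT2E (0.0046 without shCtrl replicate 1, lowest -0.653 without shRBPMS replicate 1); the cause was not tested. The other members kept the sign of their log2 change in the experiment that called them, in the settings run. Some values of members not called, and some list medians near 0, did not; the methyltransferase median with RB98# was -0.08 with library totals only. With 2 libraries per group for RB98#, and a single pair in set 1 of the knockdown, 1 library can decide a call.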

Other observations

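The histone acetyltransferases, which oppose the deacetylases, included 6 of 13 called higher with RB98# and none lower (edgeR, Benjamini-Hochberg adjusted p under 0.05), beside 20.5% and 17.3% of all genes. Their median log2 change was 0.10, against 0.00 over all genes. CREBBP had 135.7 CPM with RB98# and 73.0 CPM with DMSO on average (0.89 ± 0.07, adjusted p = 2.7e-10), NCOA3 24.6 and 14.1 CPM (0.80 ± 0.12), and EP300 217 and 159.6 CPM (0.45 ± 0.06). In the blocked fit of the knockdown 1 of the 13, KAT2A (0.43), was higher and 4 were lower, KAT6B most (-0.55), beside 13.3% and 14.8% of all genes. JMJD1C, a JmjC protein related to KDM3A, averaged 261 CPM with RB98# and 135 CPM with DMSO (0.95 ± 0.06, adjusted p = 5.48e-12). Of the 6 further demethylases JMJD1C was the single rise, and RIOX1 (-0.67) and RIOX2 (-0.50) were lower.

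The counts below stand beside 20.5% of all genes called higher and 17.3% lower with RB98#, and 13.3% and 14.8% in the blocked fit of the knockdown. Of 9 PRC2 partners 4 were higher with RB98# (PHF1 0.49, MTF2 0.44, PHF19 0.28 and JARID2 0.22) and EED was lower (-0.29), while 4 were lower and none higher in the blocked fit of the knockdown. Of 12 COMPASS partners none was higher and 3 were lower with RB98# (PAGR1 -0.49, MEN1 -0.30, WDR5 -0.20). Of 22 HDAC corepressor genes 7 were higher and 2 lower with RB98#, and 4 higher and 5 lower in the knockdown; RCOR1, a CoREST subunit, was higher in both (0.37 with RB98# and 0.55 in the knockdown). Of 5 DOT1L partners tested, AFF4 (0.80) and AFF1 (0.41) were higher with RB98#, and in the knockdown MLLT1 was higher (0.56) and AFF4 (-0.51) and MLLT10 (-0.41) lower. PRMT6, an arginine methyltransferase, averaged 20.6 CPM with RB98# and 44.0 CPM with DMSO (-1.09 ± 0.10, adjusted p = 4.83e-09). It was among 5 of 19 further methyltransferases lower with RB98#, with 3 higher; 3 were higher and 4 lower in the knockdown. Sirtuins had 2 higher and 2 lower of 6 with RB98#, and 3 higher of 7 in the knockdown.

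Some levels stood far apart between the separately counted tables. CHD4, a NuRD subunit, averaged 494 CPM with RB98# and 531 CPM with DMSO, but 28.1 CPM in shRBPMS and 34.5 CPM in shCtrl libraries. HDAC10, whose exon bases are overlapped to 55.8% by MAPK12 on its own strand, averaged 21.9 CPM with RB98# and 20.4 CPM with DMSO, but 4.08 CPM in shRBPMS and 3.22 CPM in shCtrl libraries. KDM4A, with 48.5% of its exon bases overlapped by other genes, averaged 95.4 CPM with RB98# and 63.8 CPM with DMSO, but 35.7 CPM in shRBPMS and 34.2 CPM in shCtrl libraries. These levels were not tested across tables.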
